A study of Mus musculus with 14 samples.

Results

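Fibrillar collagens are the collagens that assemble into the rope-like fibres of connective tissue. The 7 chain genes described here were Col1a1, Col1a2, Col3a1, Col5a1, Col5a2, Col5a3 and Col11a1, chosen by name as fibril-forming chains from a table of 48795 genes. All 7 were found in the table, and all 7 passed the filter on low counts that left 16408 genes for testing.

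A collagen chain is a long run of Gly-X-Y repeats, and chains wind round each other into a rod-shaped triple helix that is secreted with propeptides at both ends. Removal of the propeptides lets the rods line up into fibrils, which are then cross-linked. Type I collagen, made of the Col1a1 and Col1a2 chains, is the bulk of most fibrils, and type III collagen, a homotrimer of Col3a1 chains, joins it in compliant tissues such as lung, skin and vessel wall. Type V collagen (Col5a1, Col5a2 and the less common Col5a3 chain) sits inside the fibril, where it helps to start it and to limit its width. Col11a1 is the alpha-1 chain of type XI collagen, the cartilage counterpart of type V, and can also join with the Col5a2 chain.

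The libraries were made from fibroblasts that crawled out of chopped lung or dorsal skin on plastic, in medium with serum and no added stimulus, and were scraped off after 14 days. The mice were C57BL/6J, stated to be male and 8 to 10 weeks old, and either wild type or labelled Rel -/-. The product of Rel is c-Rel, an NF-kappaB subunit best known from lymphocytes, and no tissue-restricted driver is named for the null allele. The groups were wild-type lung (n = 5; libraries 1, 23, 3, 4 and 5), lung labelled Rel-null (n = 4; 7 to 10), wild-type skin (n = 2; 11 and 22) and skin labelled Rel-null (n = 3; 18 to 20). The title and source of Rel-null lung 10 say lung and its treatment label says skin. It was kept with lung. Whether each library had its own mouse is not stated, so a p-value here measures library-to-library spread, which may be technical.

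Total counts ran from 12780350 to 30987933 a library, with 2663437 in wild-type skin 22. Several libraries went against their labels or stood apart. Rel was read at 9.42 and 9.47 CPM (counts scaled to a common library total) in the libraries labelled Rel-null skin 19 and 20, beside 11.5 and 10.9 CPM in wild-type skin. Wild-type lung 4 had 1.1 CPM of Rel, below 3 of the 4 lung libraries labelled Rel-null. The counts do not say which Rel exons were read, so "Rel-null" below is the label only. Xist, an RNA of female cells, was read in wild-type lung 1 (64.5 CPM) and wild-type skin 22 (732 CPM). In Rel-null lung 7, wild-type skin 11, wild-type lung 4 and Rel-null skin 18, between 3.37 and 11.5% of the genes expressed in the same tissue were at 0 counts, against at most 0.728% in each other library. Fibroblast markers summed to 5481 to 11480 CPM in every library, highest in wild-type skin 22 (11480 CPM) and wild-type lung 1 (11260 CPM). Rel-null lung 7 held 11510 CPM of smooth muscle and 309.7 CPM of skeletal muscle markers, against at most 3922 and 6.88 CPM in each other lung library. Skeletal muscle markers in skin summed to 68.6 and 1130 CPM in wild-type 11 and 22, and to 412.7 to 653.4 CPM under the Rel-null label. In contrast, leukocyte markers summed to 5915 to 29510 CPM in lung and 46.7 to 170.5 CPM in skin. Skin labelled Rel-null held 1080 to 2792 CPM of keratinocyte markers, against 28.5 and 51.0 CPM in wild-type skin, with Krt1 at 0 in both skin groups. Lung epithelium markers summed to 561 to 1050.0 CPM in skin labelled Rel-null and 53.9 and 9.60 CPM in wild-type skin, with Sftpc, Sftpb and Nkx2-1 at 0 in both, and adipocyte markers to 99.02 to 333 CPM and to 2450 and 411 CPM.

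The 7 genes lie on 6 chromosomes (GRCm38, GENCODE M21). Col1a1 (ENSMUSG00000001506) is at chr11:94936224-94953042, Col1a2 (ENSMUSG00000029661) at chr6:4504814-4541544, Col5a1 (ENSMUSG00000026837) at chr2:27886425-28039514 and Col11a1 (ENSMUSG00000027966) at chr3:114030540-114220718, all on the plus strand. Col5a3 (ENSMUSG00000004098) is on the minus strand at chr9:20770050-20815067. Col3a1 (ENSMUSG00000026043, chr1:45311538-45349706, plus strand) and Col5a2 (ENSMUSG00000026042, chr1:45374321-45503282, minus strand) face each other with 24614 bp between their 3′ ends.

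Many of the exons hold a whole number of Gly-X-Y units. Of the coding exons, 51 in Col1a1, 52 in Col1a2, 51 in Col3a1, 66 in Col5a1, 54 in Col5a2 and 67 in both Col5a3 and Col11a1, between 68.2% (Col5a1) and 82.7% (Col1a2) were exactly 45, 54 or 99 bases, or 2 or 3 times 54 bases, long. Among 7424 protein-coding genes with 10 or more coding exons, 11 reached the lowest of these shares, and 4397 had no exon of such a size. A 54-base exon of each gene is shown because it is the repeat unit that the genes share. Capitals mark the 6 glycine codons that open the Gly-X-Y units, and a glycine codon inside a unit is left in lower case.
Col1a1 chr11:94939904-94939957 (plus strand): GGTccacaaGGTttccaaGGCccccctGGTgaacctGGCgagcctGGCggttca
Col1a2 chr6:4515481-4515534 (plus strand): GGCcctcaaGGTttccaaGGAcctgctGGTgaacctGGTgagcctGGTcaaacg
Col3a1 chr1:45325360-45325413 (plus strand): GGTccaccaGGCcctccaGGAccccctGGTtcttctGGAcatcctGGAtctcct
Col5a1 chr2:27965251-27965304 (plus strand): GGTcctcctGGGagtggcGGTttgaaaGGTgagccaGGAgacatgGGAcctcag
Col5a2 chr1:45434892-45434945 (minus strand): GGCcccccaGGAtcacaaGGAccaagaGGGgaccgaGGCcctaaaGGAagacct
Col5a3 chr9:20801068-20801121 (minus strand): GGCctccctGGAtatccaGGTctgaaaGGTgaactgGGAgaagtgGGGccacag
Col11a1 chr3:114108281-114108334 (plus strand): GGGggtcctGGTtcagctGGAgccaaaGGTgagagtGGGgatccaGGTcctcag
Over the whole transcripts no stretch of 50 bases was shared between any of the 7 genes. Col3a1 exons contain an annotated microRNA gene, Gm47302, on the same strand. Exons of Col5a1 overlap those of 2810430I11Rik by 99 bp and of Gm13372 by 113 bp on the other strand, and the strand setting of the counting is not given in the sources used here, so Col5a1 counts could include reads of these genes.

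RefSeq promoter windows (GRCm38.p6, 250 bases before to 50 after the start) matched 5 of the 7 members. The windows of Col3a1, Col5a3 and Col11a1 are shown because these genes passed the test between tissues described below. Capitals mark 3 motifs on either strand: CCAAT (the CCAAT box), GGGCGG (the GC box) and TATAAA (the TATA box).
Col3a1 chr1:45311288-45311587 (plus strand): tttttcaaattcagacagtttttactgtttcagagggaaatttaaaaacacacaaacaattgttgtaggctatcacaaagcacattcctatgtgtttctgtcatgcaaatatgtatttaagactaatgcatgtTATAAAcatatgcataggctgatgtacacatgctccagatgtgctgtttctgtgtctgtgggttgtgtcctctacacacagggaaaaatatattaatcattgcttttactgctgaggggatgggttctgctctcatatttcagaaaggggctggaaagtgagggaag
Col5a3 chr9:20815018-20815317 (minus strand): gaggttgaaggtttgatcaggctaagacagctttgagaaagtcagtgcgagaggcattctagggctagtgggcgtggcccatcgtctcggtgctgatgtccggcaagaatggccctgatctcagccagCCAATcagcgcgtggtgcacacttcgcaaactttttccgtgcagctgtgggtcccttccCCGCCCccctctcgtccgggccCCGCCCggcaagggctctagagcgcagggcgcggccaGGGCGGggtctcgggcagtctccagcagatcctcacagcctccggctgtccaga
Col11a1 chr3:114030290-114030589 (plus strand): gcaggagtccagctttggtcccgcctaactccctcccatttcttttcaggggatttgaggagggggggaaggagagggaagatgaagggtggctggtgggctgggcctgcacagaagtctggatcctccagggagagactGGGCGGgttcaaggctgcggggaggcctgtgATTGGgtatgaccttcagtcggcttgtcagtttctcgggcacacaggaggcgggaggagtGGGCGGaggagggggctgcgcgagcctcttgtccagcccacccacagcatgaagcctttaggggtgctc
The Col3a1 window was 37.7% G and C, below the median of 52.7% over 32851 windows, and held the TATA box motif at -117 bases from the start with neither of the others. Col5a3 (63.3% G and C) held the CCAAT box at -122 and the GC box at -63, -41 and -4, and Col11a1 (62.3%) held the CCAAT box at -79 and the GC box at -110 and -19. The Col1a2 window had the CCAAT box at -109 and at the start, and the GC box at -205 and -188. Col5a1 had the GC box at -205 and -73. Over all windows 37.4% held the CCAAT box, 35.7% the GC box and 13.6% the TATA box. No match to the NF-kappaB consensus was found in the 5 windows, against 8.5% of all windows. These are matches of letters, not binding sites.

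Expression below is CPM on library totals scaled with TMM factors. Together the 7 transcripts made up 3.15 to 13.2% of the counts in wild-type lung, 2.08 to 6.49% in lung labelled Rel-null, 1.47 and 4.15% in wild-type skin and 0.710 to 1.92% in skin labelled Rel-null. These are bulk cultures, in which fewer cells of a type and less RNA per cell cannot be told apart.

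**Figure D1:**
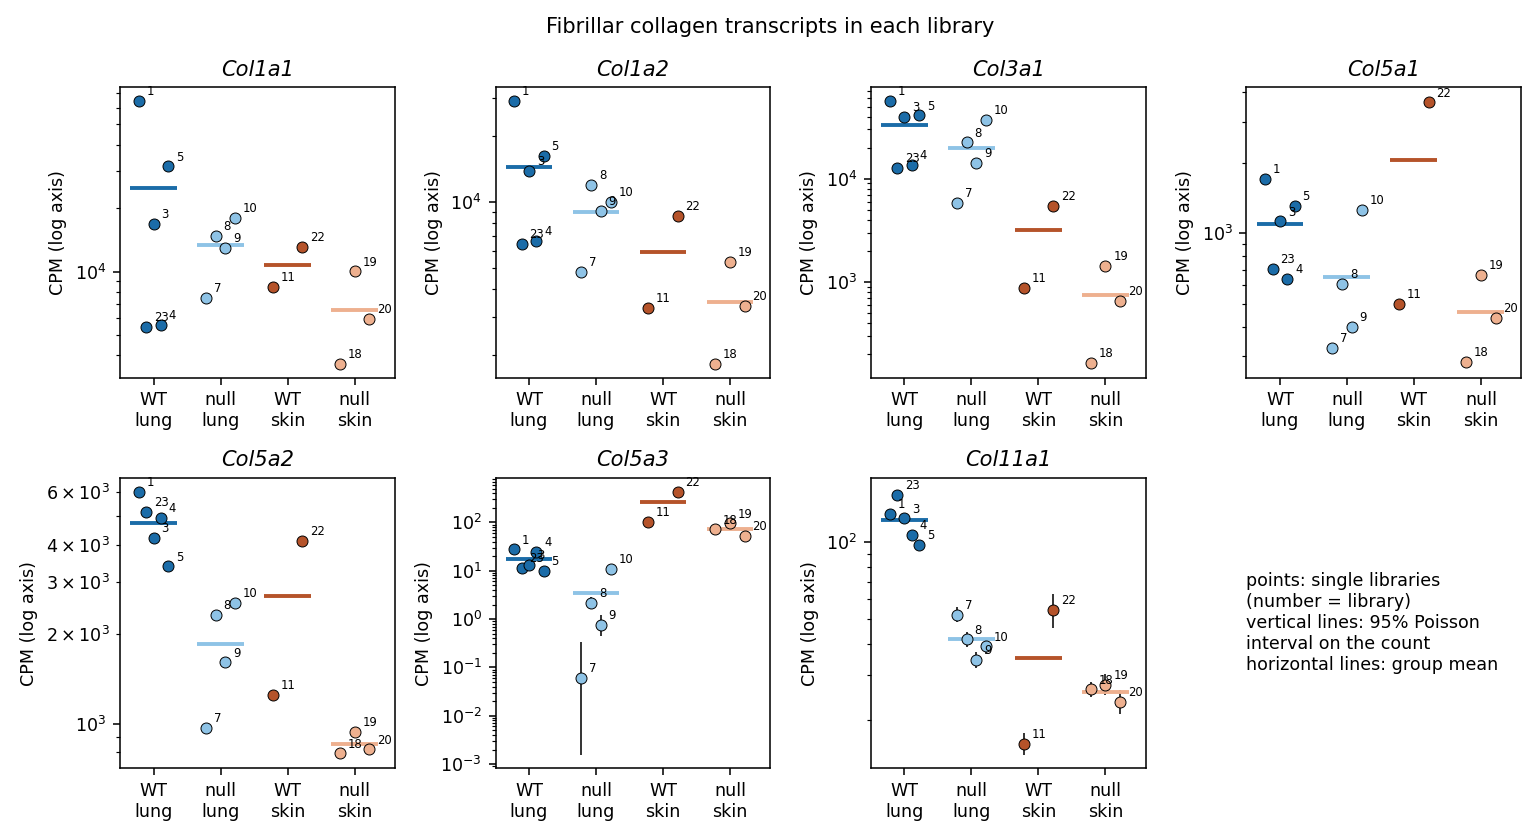
CPM of each fibrillar collagen (log axis) in the 14 libraries, numbered as in the labels, with the group mean as a horizontal line and the 95% Poisson interval of the count as a vertical line. Col11a1 and Col5a2 stand higher in all 5 wild-type lung libraries than in the 4 labelled Rel-null, Col3a1 is lower and Col5a3 higher in every skin library than in every lung library of the same genotype label, and wild-type skin 22 lies above wild-type skin 11 in every panel.

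Col1a1, the major chain of type I collagen, read 64743, 5469.8, 16804, 5574 and 31555 CPM in wild-type lung libraries 1, 23, 3, 4 and 5. It read 7499.7, 14802, 12957 and 17946 CPM in lung labelled Rel-null (7 to 10), 8495 and 13071 CPM in wild-type skin (11 and 22), and 3646, 10014 and 5988 CPM in skin labelled Rel-null (18 to 20). Wild-type lung spread 11.8-fold from its lowest to its highest library, and every group overlapped its neighbour in level. Col1a2, the partner chain, read 29051, 6464, 13827, 6625 and 16254 CPM in the wild-type lung libraries, 4801, 12000.4, 9106 and 10050.3 CPM in lung labelled Rel-null, 3274 and 8616 CPM in wild-type skin, and 1828, 5333 and 3366 CPM in skin labelled Rel-null. The libraries high for Col1a1 in lung, 1 and 5, were also the highest for Col1a2, and neighbouring groups overlapped again.

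Col3a1, the type III chain, read 57102, 12762, 39317, 13599 and 41026 CPM in the wild-type lung libraries and 5785, 22490.1, 14169.6 and 36968 CPM in lung labelled Rel-null. In skin it read 883 and 5502 CPM (wild type) and 164, 1430.3 and 661 CPM (labelled Rel-null). The lung groups overlapped, the skin groups overlapped, and the highest skin library was below the lowest lung library, 5502 against 5785 CPM.

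Of the type V chains, Col5a1 read 1705, 705, 1126, 638 and 1312 CPM in the wild-type lung libraries, 324, 608, 398 and 1262 CPM in lung labelled Rel-null, 499 and 3629 CPM in wild-type skin, and 281, 666 and 437 CPM in skin labelled Rel-null. Its highest value was in wild-type skin 22, the shallowest library, 7.28-fold above wild-type skin 11, and each group overlapped the next. Col5a2, the alpha-2 chain, read 6024, 5149.6, 4204, 4915 and 3378 CPM in the wild-type lung libraries and 966, 2314, 1605 and 2540.4 CPM in lung labelled Rel-null, with no overlap. It read 1245 and 4119.5 CPM in wild-type skin and 793, 940.2 and 819 CPM in skin labelled Rel-null, where the 3 libraries agreed within a coefficient of variation of 9.23%.

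Col5a3, the rarer type V chain, read 27.7, 11.4, 13.2, 24.5 and 9.75 CPM in the wild-type lung libraries and 2.19, 0.768 and 10.9 CPM in lung labelled Rel-null 8, 9 and 10. Rel-null lung 7 had 1 count (0.0607 CPM, exact Poisson 95% interval 0.00154 to 0.338, covering counting error only). The lung groups overlapped only through library 10. In skin Col5a3 read 101 and 422 CPM (wild type) and 71.8, 95.1 and 52.0 CPM (labelled Rel-null), above every lung library.

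Col11a1 read 129.7, 153, 124, 107 and 98.0 CPM in the wild-type lung libraries and 51.9, 41.6, 34.4 and 39.0 CPM in lung labelled Rel-null. Both lung groups were tight, with a coefficient of variation of 17.5% and 17.7%, and did not overlap. In skin it read 16.2 and 54.1 CPM (wild type) and 26.4, 27.6 and 23.6 CPM (labelled Rel-null), with the labelled Rel-null values between the pair of wild-type values. The summed cartilage markers were at 5.72 to 18.1 CPM in the wild-type lung libraries and at 2.44 to 11.4 CPM in lung labelled Rel-null, with Acan and Col9a1 at 0 counts in all lung libraries. In skin they summed to 64.1 and 26.6 CPM (wild type 11 and 22) and 67.5 to 81.9 CPM (labelled Rel-null). These sums were above Col11a1 itself in every skin library but wild-type skin 22. Col2a1, Col9a2 and Matn1 were at 0 counts in both skin groups, Col9a1 in wild type, and Acan and Hapln1 under the Rel-null label. The sums in skin therefore rest on the remaining genes of the list. The part of the cartilage markers in the Col11a1 values was not tested.

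Whether fibrillar collagen transcripts differ with the Rel label was asked first in lung. All 7 chains had lower fitted values in the Rel-null-labelled lung libraries (n = 4; wild type n = 5), as had 55.0% of all tested genes, and the median log2 fold change was -0.90 against -0.08 over all genes. None of the 7 passed edgeR's quasi-likelihood test with Benjamini-Hochberg adjustment over all genes, and 0% of the 16408 genes did. At an unadjusted p under 0.05, 3 of the 7 were lower, against 4.49% of all genes. These were Col11a1 (log2 fold change -1.55 ± 0.31 SE, adjusted p = 0.735, rank 2 of all genes by p-value), Col5a2 (-1.35 ± 0.38, adjusted p = 0.781) and Col5a3 (-2.32 ± 0.84, adjusted p = 0.781). In linear terms Col11a1 stood at 123 ± 21.4 CPM (SD) in the wild-type lung libraries and 41.7 ± 7.39 CPM in lung labelled Rel-null, a 2.94-fold lower level. Col5a2 stood at 4734 ± 999 and 1856 ± 715 CPM, 2.55-fold lower.

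The abundant chains showed smaller differences with wide errors. Col1a1 had 24829 ± 24740.3 CPM in the wild-type lung libraries and 13301 ± 4382 CPM in lung labelled Rel-null (-0.90 ± 0.66, adjusted p = 0.923), Col1a2 14444 ± 9244 and 8989 ± 3041 CPM (-0.68 ± 0.52, adjusted p = 0.939), Col3a1 32761 ± 19176.5 and 19853 ± 13293 CPM (-0.72 ± 0.72, adjusted p = 1) and Col5a1 1097 ± 442 and 648 ± 426 CPM (-0.76 ± 0.53, adjusted p = 0.91). None of these 4 had an unadjusted p under 0.05, and their groups overlapped.

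Other tools called single chains in lung. DESeq2 called Col11a1 (adjusted p = 0.00165) and Col5a2 (adjusted p = 0.0448), with 0.317% of genes called, and limma-voom with quality weights called Col11a1 (adjusted p = 0.00537), with 0.0366% called. A two-sided exact permutation test on log2 CPM gave an unadjusted p = 0.00794 for both Col11a1 and Col5a2, the smallest value that 126 splits allow, and p = 0.0159 for Col5a3; 28 such tests were run over the 7 genes and 4 comparisons, and 1.43% of all genes lay lower without overlap. With the 4 libraries with the most genes at 0 left out, a fit that kept 1 library of wild-type skin, Col11a1 was at -1.70. Without Rel-null lung 10, Col5a3 was at -4.07, and without wild-type lung 1, the library with Xist, Col1a1 was at -0.15. Leukocyte markers overlapped between the lung groups only through Rel-null lung 7 (8342 CPM). Rel-null lung 8, 9 and 10 held 29510, 23860 and 24400 CPM, above the 5915 to 22870 CPM of wild type. The part of the leukocyte markers in these collagen values was not tested.

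**Figure D2:**
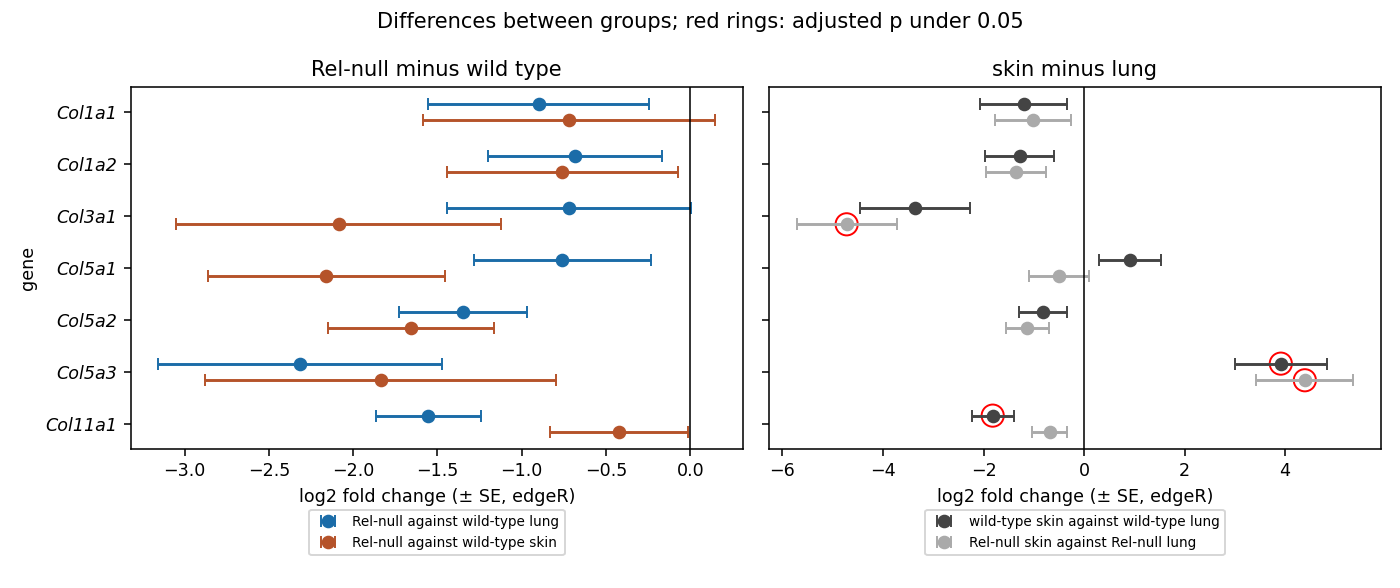
Log2 fold changes (± SE, edgeR) of the 7 genes, Rel-null label minus wild type on the left and skin minus lung on the right, with red rings where the adjusted p is under 0.05. No ring appears on the left, where all values are below 0, and the rings on the right mark Col3a1 (-4.72) in Rel-null-labelled cultures, Col11a1 (-1.82) in wild-type cultures, and Col5a3 (3.91 and 4.39) in both.

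In skin the same question had 2 wild-type and 3 labelled Rel-null libraries, of which 19 and 20 held Rel RNA at the wild-type level. All 7 chains again had lower fitted values in the libraries labelled Rel-null, with 47.0% of all genes below 0, and a median of -1.66 against 0.01. None passed edgeR's adjusted test, nor did any other gene (0%), and 3 had an unadjusted p under 0.05, against 2.59% of all genes. Col5a2 stood at 2682 ± 2033 CPM in wild-type skin and 850.6 ± 78.5 CPM in skin labelled Rel-null (-1.66 ± 0.49, adjusted p = 0.499). Col5a1 stood at 2064 ± 2214 and 461 ± 193 CPM (-2.16 ± 0.70, adjusted p = 0.638), and Col3a1 at 3192 ± 3266 and 752 ± 638 CPM (-2.09 ± 0.97, adjusted p = 0.784). Col5a3 (-1.84 ± 1.04), Col1a2 (-0.76 ± 0.69), Col1a1 (-0.72 ± 0.87) and Col11a1 (-0.42 ± 0.41) had an unadjusted p above 0.05.

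The skin values depended on wild-type skin 22, which holds Xist and has the lowest depth. Without it the median of the 7 was -0.23, with 0.40 over all genes, Col5a1 was at -0.12, Col3a1 at -0.23, Col5a2 at -0.55 and Col5a3 at -0.47, Col1a1 at -0.38, and Col1a2 (0.10) and Col11a1 (0.68) were above 0. Without Rel-null skin 19 and 20 the median was -1.77 and no chain was called, the lowest adjusted p being 0.466 for Col3a1 (-4.30). DESeq2 called Col5a2 (adjusted p = 0.0376, with 1.09% of genes called) and limma-voom called none, with 1.83% of genes called. Exact permutation could not go below p = 0.1 with 10 splits; Col5a2 and Col5a3 reached that value without overlap, as 10.3% of all genes did in this direction. The keratinocyte, lung epithelium, adipocyte and cartilage marker sums given above also parted these groups without overlap. Endothelium markers did so too, at 6.57 to 7.68 CPM in wild-type skin and 10.5 to 16.55 CPM in skin labelled Rel-null. The part of all these markers in the difference was not tested.

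The effect of the label was then compared between tissues as an interaction. No member, and 0% of genes, passed edgeR's adjusted test of the skin minus the lung effect. Col11a1 alone had an unadjusted p under 0.05 (1.13 ± 0.52 log2, adjusted p = 1), with 3.32% of genes higher at that p. Neither DESeq2 nor limma-voom called any member, with 0.673 and 1.06% of genes called. Without wild-type skin 22 the Col11a1 difference was 2.23 with an adjusted p of 0.0239, and without both libraries with Xist it was 2.22 (adjusted p = 0.0335); over all genes these fits called 370 and 365 genes. For Col5a2 the interaction was -0.31 ± 0.62, and its values of -1.35 in lung and -1.66 in skin were not shown to differ (adjusted p = 1).

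Skin and lung cultures were next compared within each label, and here single chains passed the test. In wild-type cultures 2 of the 7 passed edgeR's test, as did 2.97% of all genes (2.07% lower and 0.902% higher in skin). In cultures labelled Rel-null also 2 of the 7 passed, with 5.05% of all genes (3.23% lower and 1.82% higher). DESeq2 called 3 members under each label, with 9.20 and 11.9% of genes, and limma-voom 3 and 4, with 4.03 and 27.4% of genes. Col5a3 was higher in skin under both labels, at 261 ± 227 CPM (n = 2) against 17.3 ± 8.17 CPM (n = 5) in wild type (15.1-fold, 3.91 ± 0.91 log2, adjusted p = 0.0279) and 73.0 ± 21.6 against 3.47 ± 5.00 CPM in the libraries labelled Rel-null (21-fold, 4.39 ± 0.96, adjusted p = 0.0126). Col3a1 was lower in skin, at 752 ± 638 against 19853 ± 13293 CPM in the labelled Rel-null cultures (26.4-fold lower, -4.72 ± 1.00, adjusted p = 0.0102). In wild type the Col3a1 difference of -3.36 ± 1.09 did not pass (adjusted p = 0.137), though it did with DESeq2 (0.00132), limma-voom (0.0266) and no filter on low counts (0.00736), and whether the tissue effects differ is the interaction above. Col11a1 was lower in wild-type skin, at 35.1 ± 26.8 against 123 ± 21.4 CPM (3.53-fold lower, -1.82 ± 0.42, adjusted p = 0.025), and was at -0.69 ± 0.35 (adjusted p = 0.3) in labelled Rel-null cultures.

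Neither type I chain passed edgeR's test between tissues. Col1a1 was at -1.20 ± 0.86 and -1.02 ± 0.75 in wild-type and labelled Rel-null cultures, and Col1a2 at -1.28 ± 0.68 and -1.36 ± 0.60 (lowest adjusted p = 0.231), though limma-voom called Col1a2 under the Rel-null label (-1.31, adjusted p = 0.005). Col5a2 was at -0.82 ± 0.48 and -1.13 ± 0.43 with edgeR (adjusted p = 0.16 for the latter). The latter was called by DESeq2 (adjusted p = 0.0459), by limma-voom (0.000411) and by edgeR without the 4 libraries with most genes at 0 (0.0396). Col5a1 was the chain whose sign differed between labels, at 0.91 ± 0.62 and -0.49 ± 0.60, neither of which passed. Its wild-type value was -1.14 without wild-type skin 22. The median of the 7 was -1.20 in wild-type and -1.02 in labelled Rel-null cultures, against -0.13 and -0.01 over all genes.

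Several tissue calls ended when libraries were left out, some with little change in the fold. The wild-type Col5a3 call ended without wild-type skin 22 (2.54, adjusted p = 0.217), without it and wild-type lung 1 (2.75, 0.202), or without wild-type lung 23, 3 or 5 (3.81, 3.83 and 3.76 against 3.91, adjusted p of 0.0645, 0.075 and 0.073), and the wild-type Col11a1 call without wild-type skin 11 (-1.20, 0.254), wild-type lung 3 (-1.81, 0.0542), the 4 libraries with most genes at 0 (-1.23, 0.0724) or Rel-null skin 19 and 20 (-1.79, 0.0528). In labelled Rel-null cultures the Col5a3 call held in every fit that left 1 library out, at an adjusted p of up to 0.0499. The Col3a1 call ended without Rel-null skin 18 (-4.21, 0.0501) or 20 (-4.61, 0.0744). These fits include those without a wild-type library, which is in neither group of this comparison. With only the groups compared in the fit, this Col5a3 call (4.397, adjusted p = 0.0727) and the wild-type Col11a1 call (-1.78, adjusted p = 0.0923) ended. The Col5a3 value under the Rel-null label was 6.14 without Rel-null lung 10. Both Rel-null-label calls ended without Rel-null skin 19 and 20 together (Col3a1 -6.92, 0.0631; Col5a3 4.37, 0.0755). Without overlap, 8.54% of all genes were lower and 11.6% higher in skin under the Rel-null label, and 10.7% and 7.12% in wild type. The part of the leukocyte markers given above in the tissue differences was not tested.

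Set beside each other per kilobase of exon, the chains showed how the mix of fibrillar collagen transcripts differed. Col3a1 made up 30.8 to 48.5% of the 7 transcripts per kb in the wild-type lung libraries and 26.1 to 48.7% in lung labelled Rel-null. In skin it made up 4.86 and 13.4% in wild type and 1.97 to 6.35% in libraries labelled Rel-null. Col1a1 held 25.2 to 52.3% in wild-type lung, 35.4 to 50.5% in lung labelled Rel-null, 69.9 and 47.8% in wild-type skin 11 and 22, and 65.3 to 66.5% in skin labelled Rel-null, so that wild-type skin 22 lay within the lung range. Col5a3, at most 0.107% in lung, reached 0.547 to 1.49% in skin, and Col11a1 stayed at 0.366% or below in every library. These shares depend on the length used for each chain, and so do their differences between libraries. Shares by coding length were not computed.

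**Figure D3:**
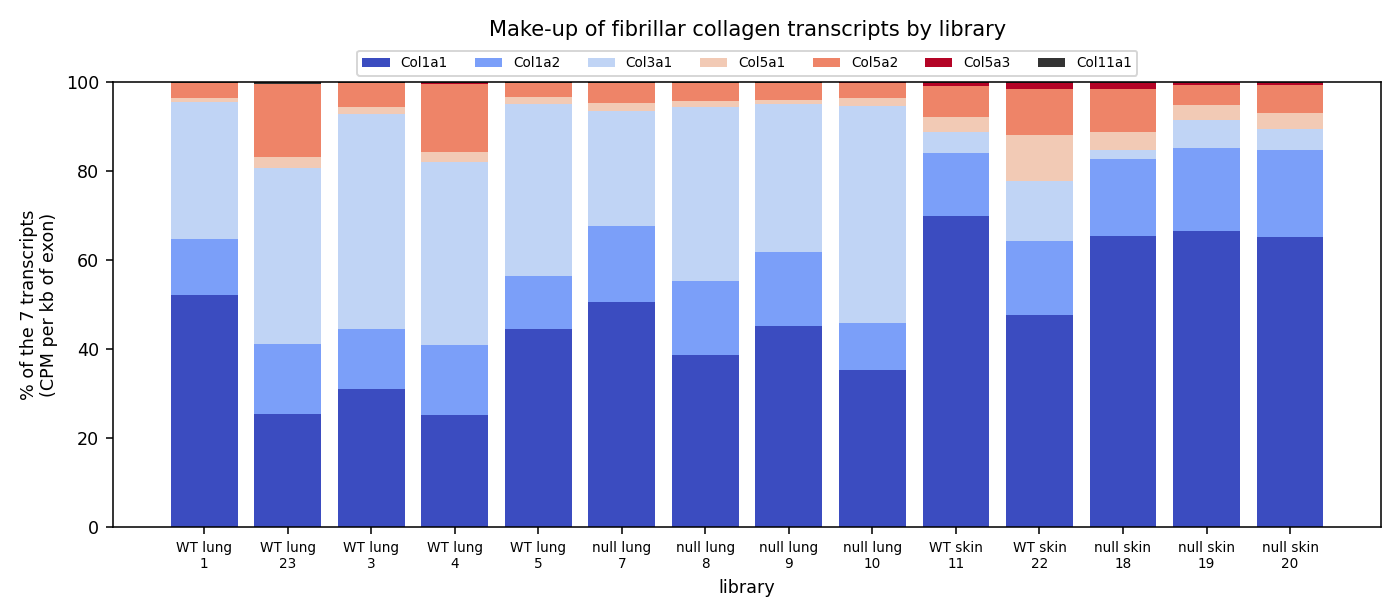
Share (%) of each chain among the 7 fibrillar collagen transcripts, from CPM per kb of exon, as 1 stacked bar for each library. The Col3a1 band spans 26.1 to 48.7% in the 9 lung libraries and 1.97 to 13.4% in the 5 skin libraries, and the Col1a1 band spans 25.2 to 52.3% in lung and 47.8 to 69.9% in skin.

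Ratios of 2 chains within a library, which do not depend on library scaling, were tested by exact permutation for 7 ratios in 4 comparisons. Of the 28 tests 8 had an unadjusted p under 0.05 and 0 passed after adjustment over the 28 (lowest adjusted p = 0.167). Ratios between tissues, and between labels in skin, could not pass this adjustment whatever their values. Their smallest possible exact p was 0.0476 (tissues, wild type), 0.0286 (tissues, Rel-null label) and 0.1 (labels in skin). Their failure to pass therefore says nothing about these ratios. The Col3a1 to Col1a1 ratio, type III against type I, was 0.59 to 1.63 in the wild-type lung libraries and 0.516 to 1.38 in lung labelled Rel-null, but 0.0695 and 0.281 in wild-type skin and 0.030 to 0.0955 in skin labelled Rel-null. Lung and skin did not overlap, with a difference of 8.25-fold in wild type (exact p = 0.0476, the smallest of 21 splits) and 14.3-fold under the Rel-null label (exact p = 0.0286, the smallest of 35). Between the genotype labels this ratio overlapped in both tissues (exact p = 0.333 in lung and 0.5 in skin, where 0.1 is the smallest possible).

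Col5a2 and Col3a1, the facing neighbours on chromosome 1, stood in a ratio of 0.0843 to 0.413 in the wild-type lung libraries and 0.0703 to 0.171 in lung labelled Rel-null, and of 0.766 and 1.44 in wild-type skin and 0.673 to 4.96 in skin labelled Rel-null. The Col5a2 to Col3a1 ratio thus separated tissues without overlap under both labels (6.10-fold and 14.7-fold higher in skin, exact p = 0.0476 and 0.0286). The latter was 8.39-fold without Rel-null skin 18, 22.8-fold without Rel-null skin 19 and 9.72-fold without the 4 libraries with most genes at 0 (exact p = 0.0667, 0.0667 and 0.1, the smallest then possible). Within type V, Col5a3 to Col5a1 was 0.00928 to 0.0479 in the wild-type lung libraries and 0.145 and 0.252 in wild-type skin (9.91-fold, exact p = 0.0476), and 0.00035 to 0.0108 against 0.148 to 0.318 under the Rel-null label (79.8-fold, exact p = 0.0286). The 79.8-fold value was 41.2-fold without Rel-null lung 7, whose Col5a3 value is 1 count, 129-fold without Rel-null lung 10 and 32.9-fold without the 4 libraries with most genes at 0 (exact p = 0.1 for each, the smallest then possible). This was also the ratio with the lowest p between labels in lung, 7.57-fold lower with the Rel-null label (exact p = 0.0159), and it was 3.9-fold lower without library 7 (exact p = 0.0357), 12.2-fold without library 10 and 3.11-fold without the 4 libraries with most genes at 0 (exact p = 0.0857).

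The type I ratio, Col1a2 to Col1a1, was 0.237 to 0.628 in wild-type lung, 0.296 to 0.428 in lung labelled Rel-null, 0.204 and 0.348 in wild-type skin and 0.265 to 0.297 in skin labelled Rel-null, and overlapped in all 4 comparisons. Its level depends on the length used: Col1a2 has 12426 bases of annotated exon and 4116 of coding sequence, Col1a1 6563 and 4359, and with coding length the wild-type lung ratio was 0.475 to 1.26. Such a choice multiplies a ratio by the same factor in every library and leaves comparisons between libraries as they are. Col11a1 to Col5a1 was 0.0498 to 0.145 in the wild-type lung libraries and 0.00996 and 0.0216 in wild-type skin (5.36-fold lower, exact p = 0.0476), and overlapped between tissues under the Rel-null label. In skin it was 2.7-fold higher with the Rel-null label without overlap (exact p = 0.1, the smallest possible). Col5a2 to Col5a1 and Col5a1 to Col1a1 gave no p under 0.05.

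**Figure D4:**
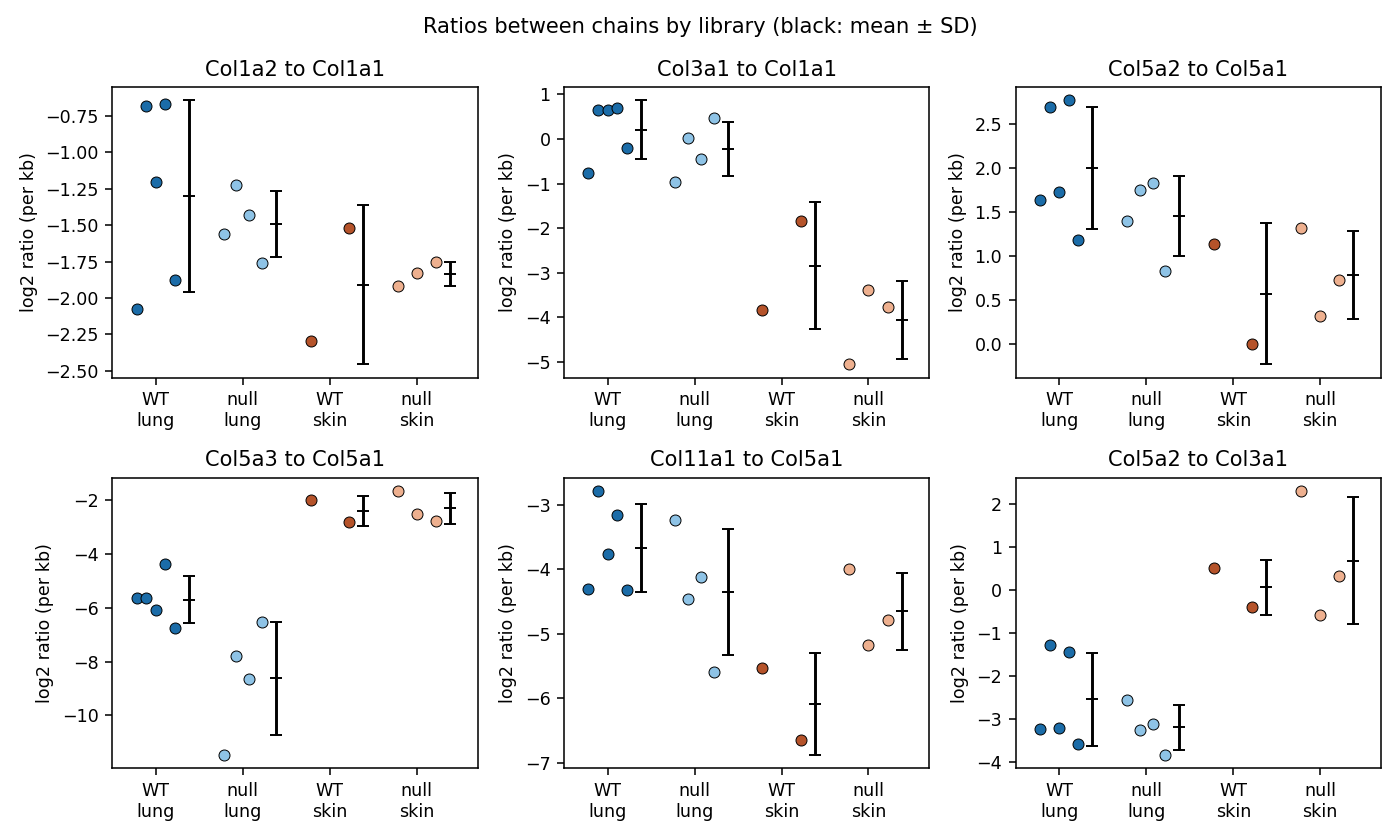
Log2 ratios between chains per kb of exon, 1 point for each library, with the group mean ± SD in black. Col3a1 to Col1a1, Col5a3 to Col5a1 and Col5a2 to Col3a1 separate lung from skin without overlap under both labels, whereas Col1a2 to Col1a1 overlaps in all groups.

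How the chains varied together was described within the 9 lung libraries, since values across tissues include the tissue difference and skin has 5. These values carry no p and share depth, scaling and the difference between labels. Across the 21 pairs Pearson r of log2 CPM ran from 0.06 (Col1a1 and Col11a1) to 0.95 (Col5a2 and Col5a3). Type I and type III chains were among the closest, with r = 0.94 for Col1a1 and Col1a2 and 0.91 for Col1a2 and Col3a1, and Col3a1 went with Col5a1 at 0.93. Col5a2 went with Col11a1 at 0.81, and with Col1a1 at 0.25.

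For each chain the 3 protein-coding genes with the most similar pattern were named by Pearson r of log2 CPM over all 14 libraries among 14246 genes, as a description in which the tissue difference is included. For Col1a1 these were Thbs3, a thrombospondin (0.96), Sparc, a collagen-binding matrix protein (0.93), and Plod1, a lysyl hydroxylase acting on procollagen (0.91). Col1a2 was closest to Plod1 (0.94), Zkscan17 (0.93) and Dbp (0.92). Col3a1 was closest to Flot1 (0.97), Dbp (0.96) and Sfrp1, a secreted Wnt antagonist (0.96). Col5a1 had Heyl (0.93), Cyp4b1 (0.89) and Dag1 (0.89). Col5a2 had Fn1, the gene of fibronectin (0.96), Ppp1r3a (0.94) and Piezo2 (0.92). Col5a3 had Col7a1, the anchoring-fibril collagen (0.94), Epb41l3 (0.94) and Aebp1, a collagen-binding matrix protein (0.94). Col11a1 had P4ha1, a prolyl 4-hydroxylase subunit (0.91), Vldlr (0.91) and Hspa5, a chaperone of the endoplasmic reticulum (0.90).

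The genes that fold, trim, assemble, cross-link, degrade, bind and regulate these collagens were followed as 6 lists of 85 genes, of which 79 were tested. In lung none passed edgeR's adjusted test. Of the 79, 59 were lower in lung labelled Rel-null, beside 55.0% of all genes, and 16 lower and 0 higher had an unadjusted p under 0.05, beside 4.49 and 1.83% of all genes. In the folding and secretion list 16 of 18 were lower, including Mia3, which carries procollagen out of the endoplasmic reticulum (-1.03 ± 0.31), and P4ha2 (-0.79 ± 0.27). Among them was also P3h3, of the prolyl 3-hydroxylase family (156 ± 52.8 CPM in wild type, 71.8 ± 37.9 CPM labelled Rel-null, -1.12 ± 0.36). Of the fibril assembly and cross-linking list 16 of 17 were lower, including the fibril-surface collagen Col12a1 (-2.53 ± 0.56), Loxl2, a lysyl oxidase (-0.92 ± 0.31), and Fn1 (11740 ± 3361 against 4606 ± 3809 CPM, -1.35 ± 0.54). The propeptide proteases Adamts14 (-3.20 ± 1.05), Bmp1 (-1.04 ± 0.35) and Adamts2 (-0.88 ± 0.50) were the lowest in p of 7 tested in that list, of which 4 were lower. In the degradation and uptake list 9 of 14 were lower, led by the uptake receptor Mrc2 (-0.90 ± 0.29) and the collagenases Mmp13 (-2.54 ± 0.87) and Mmp14 (-0.62 ± 0.29). Of the receptors 8 of 9 were lower, with Adgrg1 at -2.68 ± 1.26, the integrin chain Itga2 at -1.79 ± 1.06 and Ddr2, the fibrillar collagen receptor, at -0.46 ± 0.27. The transcription and TGF-beta list was spread round 0, with 6 of 14 lower, a median of 0.03, Tgfbr1 at 0.64 ± 0.32, the tendon factor Scx at 3.46 ± 2.05 and the inhibitory Smad7 at -0.54 ± 0.42.

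In skin 49 of the 79 were lower in libraries labelled Rel-null, beside 47.0% of all genes, none passed the adjusted test, and 8 lower and 2 higher had an unadjusted p under 0.05, beside 2.59 and 3.65% of all genes. The proteoglycan Lum stood at 24.7 ± 3.24 CPM in wild-type skin and 163 ± 94.95 CPM in skin labelled Rel-null (2.72 ± 0.66, adjusted p = 0.359), while the fibril-associated Col14a1 was at -2.68 ± 0.76, Loxl2 at -1.17 ± 0.41, the collagen-binding integrin chain Itga11 at -2.46 ± 0.84 and Ddr2 at -1.06 ± 0.37, all with adjusted p of 0.458 or higher. In the degradation list, with 8 of 14 lower, the gelatinase Mmp9 stood at 7.09 ± 8.67 CPM in wild-type skin and 189 ± 82.6 CPM in skin labelled Rel-null (4.62 ± 1.41, adjusted p = 0.541), and with Lum it made up the 2 higher genes with an unadjusted p under 0.05. Mmp8 was at -1.87 ± 0.78 and the protease Ctsk at -0.78 ± 0.40. Of the folding list 10 of 18 were lower, with Mia3 at -0.98 ± 0.41, P4ha2 at 0.70 ± 0.36 and P3h3 at -0.83 ± 0.48. Of the propeptide cleavage list 6 of 7 were lower, with the proteases Adamts2 at -1.46 ± 0.66, Adamts3 at -3.42 ± 1.88 and Bmp1 at -0.82 ± 0.46. Of the receptors 7 of 9 were lower, Itga1 being at -1.72 ± 0.87. The transcription and TGF-beta list had 5 of 14 lower, with a median of 0.23, Skil at 0.37 ± 0.35, Smad3 at 0.71 ± 0.83 and Yap1 at 0.31 ± 0.37.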

How the data were processed

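RNA was sequenced from 14 explant cultures. One table of whole-number counts over 48795 Ensembl identifiers was deposited. STAR 2.4.2a, Trimmomatic 0.33, FastQC 0.11.2 and the GRCm38 build are named, without roles, in the submitters' processing notes. What counted the reads, with which annotation and strand setting, is not given in the sources used here. The labels name a directional library kit. Symbols and coordinates came from GENCODE M21, which lacked 446 of the identifiers, and a column could be matched to every sample.

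Counts were tested with edgeR 4.0.16 in R 4.3.3: genes kept by filterByExpr (at least 10 counts, total at least 15), scaling by TMM, a quasi-likelihood fit with a mean for each of 4 groups, Benjamini-Hochberg adjustment over 16408 genes and a threshold of 0.05. For each gene the 4 groups shared 1 estimate of spread. The SE printed with edgeR values is not an output of edgeR. It was derived as the absolute log2 fold change divided by the square root of the quasi-likelihood F value. The common dispersion over all genes, given as a description, was 0.948. Exact permutation tests used log2 CPM with a prior count of 1, and chain ratios used counts per kb of exon. No libraries of 1 group agreed within sampling noise (lowest chi-square per degree of freedom 35.3). No molecular identifiers are named in the labels, so intervals describe counting error alone. Alternatives were RLE and upper-quartile factors, other filters (none, or 1 CPM in 4 libraries), DESeq2 1.42.0, limma-voom (limma 3.58.1), only the groups compared, each library left out, a prior count of 5, raw totals and raw count ratios. Sets of libraries left out and coding length were chosen after seeing the data. The 7 members, the lists and the tests were chosen with earlier results of these data known. Named genes were the members, the 3 genes most similar to each, and of each pathway list those with the 3 smallest p-values in each genotype comparison.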

Additional observations from a re-analysis of the deposited data

How the results depend on the processing

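Direction and call were kept in 776 of 833 refitted values of single chains. This share overstates stability. It includes fits that left out a library of neither group compared, and most values were not called to begin with. No paired analysis was possible because no replicate number occurs in more than 1 group. Where a fit kept 1 library of wild-type skin or of skin labelled Rel-null, that library was assumed to vary like the other groups. RLE and upper-quartile scaling changed no count of called chains. With 2 wild-type skin libraries, differences that involve skin are the least certain.

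The count of called chains was 0 in lung with edgeR but 2 with DESeq2, and 1 with limma-voom or without the 4 libraries with most genes at 0. In skin it was 0 but 1 with DESeq2. For the difference between tissues it was 0, 0 to 1 over fits that left 1 library out, and 1 without wild-type lung 1 and wild-type skin 22. For wild-type skin against lung it was 2, 0 to 2 over left-out libraries, and 1 with only the groups compared or without each of the 3 sets of libraries chosen after seeing the data, but 3 with DESeq2, limma-voom or no filter. Under the Rel-null label it was 2, 1 to 2 over left-out libraries, 4 with limma-voom, 3 with DESeq2 or without the 4 libraries with most genes at 0, 1 with only the groups compared and 0 without Rel-null skin 19 and 20.

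Of the 833 values 28 changed sign, none of them past the threshold, and the cause was not tested. With limma-voom these were Col11a1 in skin (0.40) and the Col1a2 difference between tissues (0.0581). Without the 4 libraries with most genes at 0 it was the Col5a3 difference (-0.71), and without Rel-null skin 19 and 20 the Col1a1 difference (-0.69). Without wild-type lung 1 and wild-type skin 22 they were, in skin, Col1a2 (0.14) and Col11a1 (0.71), the differences of Col1a1 (-0.18), Col1a2 (0.40), Col3a1 (0.24), Col5a1 (0.47) and Col5a2 (0.73), wild-type Col5a1 between tissues (-0.93), and the exact test of Col1a1 in lung (0.17). Over the fits that left 1 library out, log2 values ranged in skin from -1.25 to 0.10 for Col1a2 and -1.02 to 0.68 for Col11a1. The differences ranged from -0.59 to 0.52 for Col1a1, -0.58 to 0.78 for Col1a2, -2.23 to 0.49 for Col3a1, -2.18 to 0.64 for Col5a1, -0.89 to 0.80 for Col5a2 and -0.17 to 2.23 for Col5a3. Between tissues Col5a1 ranged from -1.14 to 1.71 in wild type and -0.85 to 0.0557 under the Rel-null label.

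Among 245 exact-test values 3 changed sign, and among 245 chain-ratio values 4 did. Over left-out libraries the mean log2 difference ranged from -0.72 to 0.17 for Col1a1 in lung and -0.68 to 0.0194 for Col5a1 between tissues under the Rel-null label. The log2 ratio difference of Col11a1 to Col5a1 in that comparison ranged from -0.72 to 0.0701. In skin between labels it ranged from -0.0492 to 0.45 for Col5a2 to Col5a1, -0.23 to 0.32 for Col5a3 to Col5a1 and -0.19 to 1.25 for Col5a2 to Col3a1. Over all genes the calls in lung went from 0 to 51 with DESeq2, in skin from 0 to 153 with DESeq2, 300 with limma-voom and 421 without wild-type skin 22. Under the Rel-null label between tissues limma-voom called 4501 genes.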

Other observations

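Between tissues 4 of the 79 collagen-handling genes passed edgeR's adjusted test in wild type and 11 under the Rel-null label, where 2.97 and 5.05% of all genes did. The 4 and, under the Rel-null label, 9 of the 11 are given here, as those with the 3 smallest p-values of their list, chosen after their values were seen. Plod2, the lysyl hydroxylase of the chain ends, was lower in skin under both labels (605 ± 92.6 CPM in wild-type lung, 70.2 ± 18.9 CPM in wild-type skin, -3.11 ± 0.51, adjusted p = 0.00244, and -3.26 ± 0.44, adjusted p = 0.000286), as was the small proteoglycan Ogn (-4.88 ± 0.95, adjusted p = 0.00822, and -4.61 ± 0.78, adjusted p = 0.00198). Lum was lower in wild-type skin (-2.39 ± 0.62, adjusted p = 0.049), and Postn, the fibril-associated protein periostin, higher (96.8 ± 24.7 in lung against 3259 ± 3997 CPM, 5.07 ± 0.77, adjusted p = 0.0016). Under the Rel-null label the fibril-surface collagens went opposite ways, with Col12a1 higher in skin (2.85 ± 0.60, adjusted p = 0.0106) and Col14a1 lower (-4.45 ± 0.75, adjusted p = 0.00197). There the hydroxylase subunit P4ha2 (1.70 ± 0.30, adjusted p = 0.00262) and the propeptide protease Adamts14 (4.38 ± 1.16, adjusted p = 0.0396) were higher, and the collagenase Mmp8 (-3.61 ± 0.76, adjusted p = 0.00936), the inhibitor Timp3 (-2.95 ± 0.74, adjusted p = 0.0279) and the leukocyte collagen receptor Lair1 (-7.77 ± 1.46, adjusted p = 0.00422) lower in skin.

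Of the 4 fibril-forming chains outside the 7, Col11a2, Col24a1 and Col27a1 were tested, none passed in any comparison, and the cartilage chain Col2a1 was filtered out. Col27a1 read 2.36 ± 1.53 CPM in wild-type lung, 40.6 ± 49.9 CPM in wild-type skin and 2.21 ± 1.46 CPM in skin labelled Rel-null. Between labels it was at -2.61 ± 1.65 in lung and -4.19 ± 2.16 in skin, Col11a2 at -1.43 ± 2.25 and -6.83 ± 3.51, and Col24a1 at 0.35 ± 1.61 and 0.68 ± 2.26, all with an adjusted p of 0.784 or higher.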
